A study of Mus musculus with 20 samples.

Results

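The genes described here make cholesterol, sense it, move it between and out of cells, or turn it into oxysterols, which are oxidised forms of cholesterol. They were chosen by gene symbol, with earlier results of these data known, and 35 symbols were listed. A probe set with exactly 1 platform gene symbol was found for 33 of them, the brightest probe set over the 20 arrays stood for a gene with several, and all 33 passed the filter on dim probe sets. They stand among 14129 genes tested. The expression of Nr1h2 and Soat1 was not analysed here, but their promoters were among those searched below.

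The arrays held total RNA from the hypothalamus of male C57BL/6J mice made obese by diet. Feeding on a diet with 45% fat began at 4 weeks of age and went on for 16 weeks, also in the controls. Mice were injected into the peritoneum with celastrol, a plant triterpenoid, or with DMSO, the solvent used as vehicle. There were 4 arrays of celastrol and 3 of DMSO at 6 h, 4 of celastrol and 3 of DMSO at 1 day, and 3 of celastrol and 3 of DMSO at 4 days. The labels give 25 µl of DMSO per day for all groups and a volume of 100 µl for celastrol. They state its dose, 250 µg/kg, beside the 6 h time only. No lean mice and no untreated mice were among the groups, so every difference is between 2 groups of obese, injected mice. Arrays within a group are titled as biological replicates, and no batch is named. Of the markers with a probe set, 10 of 10 for neurons and 11 of 11 for hypothalamic neurons were above the dim level, and Agrp was not analysed here.

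Cholesterol in the brain is made there, because lipoproteins of the blood barely cross the blood-brain barrier. Enzymes of the mevalonate and sterol pathways build it, and their genes are driven by the transcription factor SREBP-2, which is held in the endoplasmic reticulum by Scap and the Insig proteins when sterol is plentiful. Oxysterols such as 25-hydroxycholesterol bind Insig and so hold SREBP back, and they also bind liver X receptors, which raise the cholesterol exporters Abca1 and Abcg1. Ch25h makes 25-hydroxycholesterol, and Cyp7b1 hydroxylates it further.

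The promoters of Ch25h and Hmgcs1 are shown because the comparison of Ch25h with the synthesis genes is the one the results turn on. Both come from RefSeq (GRCm38.p6) and run from 250 bases before to 50 bases after the start of the gene, 5′ to 3′ on the gene's strand. The Ch25h window is chr19:34475099-34475398 on the minus strand, and that of Hmgcs1 is chr13:119690101-119690400 on the plus strand. In the Ch25h window the capitals mark a cAMP response element, TGACGTCA. In the Hmgcs1 window they mark a sterol regulatory element, searched as TCACNCCAC, and CCAAT boxes, which read ATTGG on the strand printed.
Ch25h: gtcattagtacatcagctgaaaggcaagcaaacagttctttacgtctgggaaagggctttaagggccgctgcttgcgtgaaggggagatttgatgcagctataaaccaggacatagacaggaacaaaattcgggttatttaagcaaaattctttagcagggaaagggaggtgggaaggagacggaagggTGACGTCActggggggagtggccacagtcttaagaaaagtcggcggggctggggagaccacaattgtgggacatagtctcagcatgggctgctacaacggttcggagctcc
Hmgcs1: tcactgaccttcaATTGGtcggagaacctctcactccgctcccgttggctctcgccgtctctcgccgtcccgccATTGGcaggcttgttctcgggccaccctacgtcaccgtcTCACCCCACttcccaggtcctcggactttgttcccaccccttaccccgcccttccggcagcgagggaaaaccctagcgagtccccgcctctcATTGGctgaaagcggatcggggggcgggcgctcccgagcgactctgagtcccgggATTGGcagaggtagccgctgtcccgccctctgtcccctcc

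Motifs were searched on both strands in 32851 promoters of this length, and a match is a description of letters, not a site. TGACGTCA began 61 bases before the start of Ch25h and was found in 1.79% of all promoters. It was searched after the Ch25h promoter had been read. Of the 28 listed genes with a promoter, Ch25h alone held it. TCACNCCAC began 137 bases before the start of Hmgcs1, was in 1.24% of promoters, and Hmgcs1 was the only one of the 28 genes with it. CCAAT was in the promoters of 14 of 14 synthesis genes with a promoter and of 22 of the 28 listed genes, against 41.1% of all genes and 37.4% of all promoters. The Ch25h window held neither CCAAT nor TCACNCCAC, and none of 4 other motifs: CACGTG (an E-box, in 7.15% of promoters), GAAANNGAA (interferon response, in 8.56%), GGNNTTTCC (NF-kB, in 5.82%) and AGAACA (part of the glucocorticoid element, in 19% of promoters).

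Ch25h rose with celastrol at 1 day, and it was the only one of the 33 genes past the threshold in any comparison. At 1 day its log2 intensity was 8.18, 8.67, 7.95 and 7.66 in celastrol arrays, against 6.94, 6.55 and 6.58 in DMSO arrays. Every celastrol array was above every DMSO array, and the lowest celastrol value stood clear of the highest DMSO value. The means were 8.12 ± 0.43 with celastrol (SD, n = 4) and 6.69 ± 0.22 with DMSO (SD, n = 3). The log2 difference, celastrol minus DMSO, was 1.42 (SE 0.23, 95% interval 0.94 to 1.91), with an adjusted p of 0.00743 in limma over all genes. All 3 DMSO arrays lay under 7.04, the dim level below which probe sets were left out, so their measured values are not taken as exact levels. Set against DMSO arrays raised to that level, the celastrol mean of Ch25h was 2.11-fold higher, a value given without an interval. At this time 0.425% of all genes tested were called, and 1 of the 33 members. In bulk tissue, more RNA per cell and more cells that make the RNA cannot be told apart.

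At 6 h the 2 groups overlapped. Ch25h read 7.22, 7.39, 7.97 and 7.18 in celastrol arrays, against 6.68, 7.77 and 6.92 in DMSO arrays. DMSO replicate 2 was above 3 of the 4 celastrol arrays. The difference was 0.32 (SE 0.23, 95% interval -0.17 to 0.80; limma adjusted p = 0.743). This value leans on single arrays: it was 0.64 without DMSO replicate 2 (limma adjusted p = 0.305), 0.092 without DMSO replicate 1 (limma adjusted p = 0.907) and 0.14 without celastrol replicate 3 (limma adjusted p = 0.887). An increase of the size seen at 1 day lay outside the interval with all arrays.

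At 4 days the groups separated again, with a smaller difference of the means and less spread. Ch25h read 7.62, 7.53 and 7.39 in celastrol arrays, against 6.65, 6.51 and 6.62 in DMSO arrays. All 3 celastrol arrays were above all 3 DMSO arrays. The means were 7.51 ± 0.12 with celastrol and 6.59 ± 0.073 with DMSO (SD, n = 3 each). The difference of 0.92 (SE 0.25, 95% interval 0.40 to 1.44) had an unadjusted p of 0.00156 and did not pass in limma (adjusted p = 0.374), in a model that gives all groups of a gene 1 spread. All 3 DMSO arrays were again under the dim level, and against that level the celastrol mean was 1.39-fold higher, again without an interval. When only the 6 arrays of this time entered the model, the same difference passed (limma adjusted p = 0.00506).

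Averaged over the 3 times with equal weight, Ch25h was 0.89 higher with celastrol (SE 0.14, 95% interval 0.60 to 1.18; limma adjusted p = 0.00328). At this average 0.573% of all genes were called. All 11 celastrol arrays were above the dim level of 7.04, against 1 of 9 DMSO arrays. The filter looked at the mean over all 20 arrays, which was 7.30 for Ch25h, so the gene entered the test through its celastrol arrays. With no filter on dim probe sets the 1 day call held, at an adjusted p of 0.0125 in limma.

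**Figure D1:**
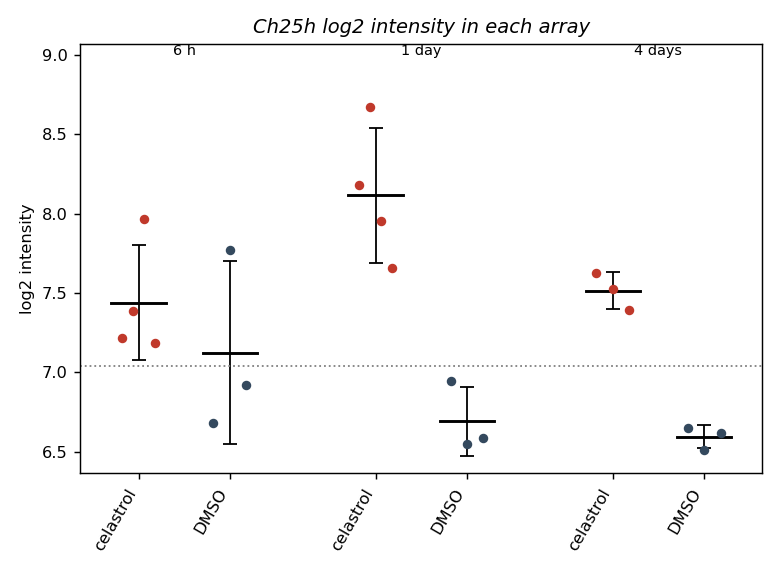
Log2 intensity of Ch25h in each of the 20 arrays (vertical axis) by group (horizontal axis), with celastrol left of DMSO at 6 h, 1 day and 4 days. Points are arrays, bars are the group mean and SD, and the dotted line is the dim level of 7.04, below which all DMSO arrays of 1 day and 4 days lie.

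The 1 day call rests on few DMSO arrays. Without DMSO replicate 2 the difference was 1.35 and the limma adjusted p was 0.0568. Without celastrol replicate 2, the array with the highest Ch25h value, it was 1.24, and the call held (limma adjusted p = 0.0292). DMSO replicate 3 at 6 h and DMSO replicate 3 at 1 day stand apart from the other arrays on the first component of the residuals over all genes. Without both, the difference of Ch25h was 0.21 at 6 h and 1.37 at 1 day, and the second of these still passed (limma adjusted p = 0.0422).

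The difference of Ch25h was not shown to vary with time. The celastrol difference at 1 day was 1.11 larger than at 6 h (SE 0.33, unadjusted p = 0.00331), which did not pass in limma (adjusted p = 0.368). From 1 day to 4 days it changed by -0.50 (limma adjusted p = 1.00). Within celastrol arrays, Ch25h at 1 day was 0.68 above its level at 6 h (limma adjusted p = 0.132), and its change between 1 day and 4 days was -0.60 (limma adjusted p = 0.334). DMSO arrays at 4 days differed by -0.53 from those at 6 h (limma adjusted p = 0.465). Between 6 h and 4 days the celastrol difference changed by 0.61 (limma adjusted p = 0.666; 0.0142% of all genes called). These comparisons share arrays with the ones of celastrol against DMSO. Over the other comparisons of this paragraph, in the order given, 0.00708%, 0.00708%, 0.134%, 0.0425% and 0.0283% of all genes were called.

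Ch25h also varied more between arrays of the same group than the other members. Its within-group SD was 0.352 on the log2 scale, at the 99.8th percentile of all genes tested, against 0.0333 to 0.163 for the other 32 members and a median of 0.0804 over all genes.

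Markers of the cells that could carry Ch25h were read beside it. Macrophages and microglia make Ch25h in the mouse when stimulated. Of 9 microglial markers tested 0 passed at any time, and their median differences were -0.05, -0.04 and -0.02 at 6 h, 1 day and 4 days. At 1 day the mean level of the microglial markers ranged from 8.93 to 9.07 in celastrol arrays and from 8.99 to 9.08 in DMSO arrays. Of 7 markers of border and perivascular macrophages, 5 (Mrc1, Cd163, Pf4, Cbr2 and Ms4a7) were under the dim level. The other 2, Lyve1 and F13a1, had median differences of 0.09, 0.11 and 0.07 at the 3 times, and neither passed. The mean level of these 7 markers at 1 day was 6.68 to 6.82 in celastrol arrays and 6.60 to 6.76 in DMSO arrays.

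Of the markers of ependymal cells and tanycytes, the glia that line the third ventricle, 1 of 8 passed at 1 day. It was Dio2, a thyroid hormone deiodinase (difference 0.50, limma adjusted p = 0.0423). Over all genes tested, 0.425% were called at 1 day. At that time 6 of the 8 were higher with celastrol, with a median of 0.08, and the mean level of the list was 8.87 to 8.95 in celastrol arrays and 8.73 to 8.84 in DMSO arrays, without overlap. The medians at 6 h and 4 days were 0.04 and 0.05, and at both times the arrays' mean levels overlapped.

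Of 4 tested markers of neutrophils and blood leukocytes 0 passed at 1 day, with a median of -0.05. At 4 days 1 passed, Csf3r (difference 0.30, limma adjusted p = 0.0413), when 0.0637% of all genes tested were called. The mean level of the 7 markers with a probe set was then 7.13 to 7.22 in celastrol arrays and 7.03 to 7.08 in DMSO arrays. S100a8, S100a9 and Retnlg, which define neutrophils, were under the dim level and are part of that mean. Of 9 endothelial markers 1 passed at 1 day, when 0.425% of all genes tested were called. It was Cldn5, a tight junction protein of vessels (difference -0.61, limma adjusted p = 0.00857), and the median of the 9 was 0.03. The markers of meningeal fibroblasts averaged 9.34 in celastrol replicate 2 of 1 day, the array with the highest Ch25h, and lay between 8.47 and 8.87 in the other 3 celastrol arrays and between 8.57 and 8.86 in DMSO arrays of that time. Of 5 tested fibroblast markers 0 passed, with a median of 0.10 at 1 day. The part of any of these cells in the Ch25h difference was not tested, beyond the value without that array given above.

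Interferon raises Ch25h in mouse macrophages, so a list of interferon-stimulated genes was read as well. Of the 8 tested, 0 passed at any time. At 1 day 1 was higher and 7 were lower with celastrol, and the median difference was -0.11. The mean level of the list at 1 day was 7.81 to 7.92 in celastrol arrays and 7.89 to 8.09 in DMSO arrays.

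Among the other enzymes that act on cholesterol or oxysterols, Cyp7b1 had differences of opposite sign at different times, none of which passed. Cyp7b1 hydroxylates 25-hydroxycholesterol and 27-hydroxycholesterol at another carbon, which in the first case leads to the ligand of the receptor Gpr183. At 6 h it read 8.62, 8.79, 8.82 and 8.69 in celastrol arrays, against 8.79, 8.73 and 8.95 in DMSO arrays, and the groups overlapped. At 1 day it read 8.91, 8.91, 8.91 and 8.89 in celastrol arrays, against 8.77, 8.74 and 8.75 in DMSO arrays, so that all celastrol arrays were above all DMSO arrays. At 4 days it read 8.85, 8.65 and 8.69 in celastrol arrays, against 8.81, 8.95 and 8.999 in DMSO arrays, and only celastrol replicate 1 was inside the DMSO range.

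The log2 differences of Cyp7b1 were -0.09, 0.15 and -0.19 at 6 h, 1 day and 4 days, with limma adjusted p-values of 0.707, 0.514 and 0.585. The change of its difference between 1 day and 4 days was -0.34 (SE 0.090, unadjusted p = 0.00141), which did not pass in limma (adjusted p = 1.00). Both treatments contributed to it. The mean of Cyp7b1 in celastrol arrays was 8.90 at 1 day and 8.73 at 4 days. In DMSO arrays Cyp7b1 at 4 days was 0.16 above that at 1 day (limma adjusted p = 0.611). Gpr183 itself was under the dim level. Hsd3b7, the enzyme after Cyp7b1 on that route, differed by 0.04, -0.0015 and -0.06 at the 3 times.

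Cyp46a1, the neuronal 24-hydroxylase that lets the brain export cholesterol, did not separate celastrol from DMSO. Its differences were -0.02, -0.02 and 0.08 at 6 h, 1 day and 4 days. Within celastrol arrays it read 11.09, 11.11 and 10.96 at 4 days, against 10.77, 10.82, 10.79 and 10.96 at 1 day. Replicates 1 and 2 of 4 days were above every array of 1 day, and replicate 3 was level with the highest of them. The change was 0.21 (SE 0.052, unadjusted p = 0.000642; limma adjusted p = 0.168), and DMSO arrays changed by 0.12 between the same times (limma adjusted p = 0.677). Cyp27a1, the 27-hydroxylase, differed between celastrol and DMSO by 0.09, -0.03 and -0.09, and its groups overlapped at every time.

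**Figure D2:**
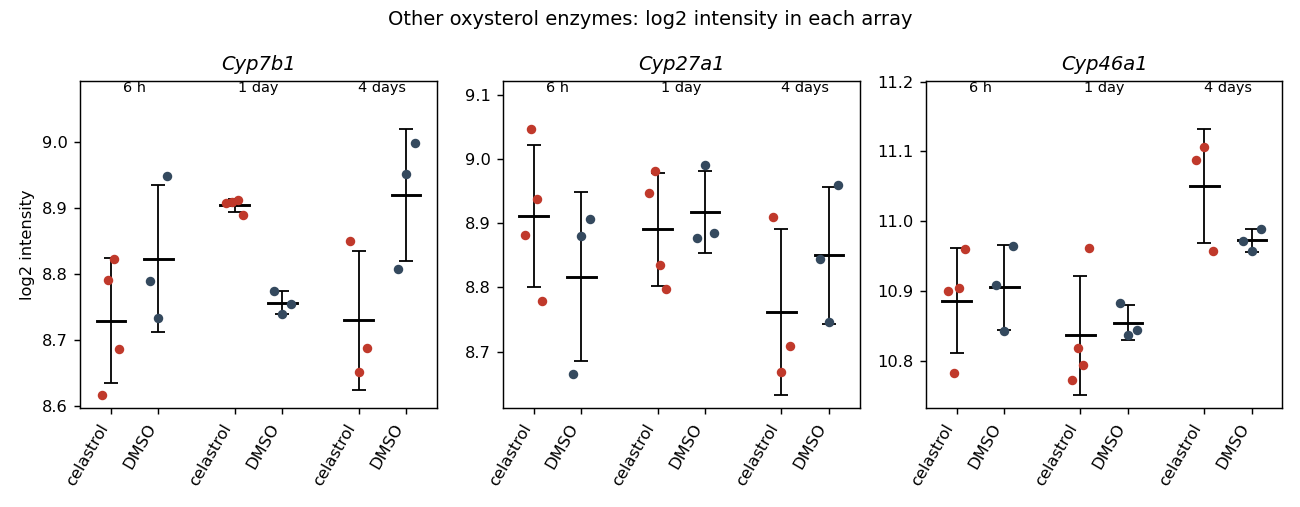
Log2 intensity of Cyp46a1, Cyp27a1 and Cyp7b1 in each array (vertical axes, scaled per gene) by group (horizontal axes), with celastrol left of DMSO at each time and bars for the mean and SD. Cyp7b1 in celastrol arrays lies above DMSO at 1 day and mostly below it at 4 days, and no difference in the panels passed the threshold.

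None of the 17 synthesis genes passed at any time. Taken by count, 13, 11 and 12 of the 17 were lower with celastrol at 6 h, 1 day and 4 days, with median differences of -0.07, -0.04 and -0.05. Over all genes, 58.3%, 46.2% and 45.6% were lower, with medians of -0.01, 0.0063 and 0.0075. Limma called 0 synthesis genes at each time, and at an unadjusted p under 0.05 the lower ones numbered 1, 2 and 0, with 0 higher. Unadjusted p-values under 0.05 were found for 2, 4 and 3 of all 33 members, which is 6.06%, 12.1% and 9.09%, against 7.55%, 8.19% and 6.53% of all genes. In limma 0% of all genes were called at 6 h and 0.0637% at 4 days.

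In the mevalonate steps, Hmgcs1 had the smallest p at 1 day and at 4 days. It makes HMG-CoA, an early intermediate of the pathway, and its promoter is the one printed above with a sterol element. At 1 day it read 11.34, 11.21, 11.28 and 11.25 in celastrol arrays, against 11.35, 11.30 and 11.32 in DMSO arrays, with overlap. At 4 days it read 11.19, 11.20 and 11.14 in celastrol arrays, against 11.25, 11.30 and 11.27 in DMSO arrays. There all celastrol arrays were below all DMSO arrays, by a small gap. Its differences were -0.08, -0.05 and -0.10 at 6 h, 1 day and 4 days (limma adjusted p = 0.675, 0.809 and 0.774). Mvk, the mevalonate kinase, read 9.53, 9.52, 9.43 and 9.49 in celastrol arrays at 6 h, against 9.59, 9.67 and 9.52 in DMSO arrays. Celastrol replicate 1 was just inside the DMSO range and the other celastrol arrays were below it, and the difference of -0.10 did not pass (limma adjusted p = 0.658).

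Idi1, the isopentenyl diphosphate isomerase, showed the largest negative point differences of the mevalonate steps, -0.16, -0.08 and -0.19 at 6 h, 1 day and 4 days. Its 95% intervals all included 0, the one at 4 days from -0.38 to 0.01. A second Idi1 probe set gave -0.17, -0.07 and -0.15. Pmvk, Mvd and Fdps, which carry the pathway through the later mevalonate steps to farnesyl diphosphate, differed by -0.07 to 0.09 over the 3 times.

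In the sterol steps, Hsd17b7 and Ebp had the lowest differences at 1 day and on average over the times. Hsd17b7 reduces the ketone formed when methyl groups are taken off the sterol ring. At 6 h it read 9.50, 9.66, 9.51 and 9.41 in celastrol arrays, against 9.54, 9.68 and 9.69 in DMSO arrays, a difference of -0.11 (limma adjusted p = 0.674) with overlap. At 1 day it read 9.46, 9.37, 9.31 and 9.45 in celastrol arrays, against 9.49, 9.50 and 9.60 in DMSO arrays. Those groups did not overlap, and the difference of -0.13 had an unadjusted p of 0.0437 and did not pass in limma (adjusted p = 0.588).

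Ebp, the isomerase that shifts a ring double bond, read 9.45, 9.40, 9.33 and 9.33 in celastrol arrays at 1 day, against 9.43, 9.49 and 9.60 in DMSO arrays. Only celastrol replicate 1 was inside the DMSO range, and the difference was -0.13 (limma adjusted p = 0.493). At 4 days Ebp read 9.36, 9.31 and 9.34 in celastrol arrays, against 9.49, 9.38 and 9.42 in DMSO arrays, with no overlap and a difference of -0.09 (limma adjusted p = 0.860). The other 9 sterol genes are Fdft1, Sqle, Lss, Cyp51, Tm7sf2, Msmo1, Nsdhl, Sc5d and Dhcr7. Their differences ran from -0.16 (Cyp51, the lanosterol demethylase, at 6 h) to 0.12 (Nsdhl, a sterol dehydrogenase, at 4 days). Sc5d, the lathosterol desaturase, had lower values in all 4 celastrol arrays than in the 3 DMSO arrays at 6 h, with a difference of -0.08 (limma adjusted p = 0.690).

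Averaged over the times, 13 of the 17 synthesis genes were lower, with a median of -0.04, against 50.1% of all genes. Unadjusted p-values under 0.05 were found for 4 of them, all lower, and for 5 of 33 members, or 15.2%, against 8.78% of all genes. They were Hmgcs1 (-0.08, SE 0.027), Idi1 (-0.14, SE 0.051), Hsd17b7 (-0.11, SE 0.036) and Ebp (-0.10, SE 0.032), and their limma adjusted p-values of 0.295, 0.339, 0.247 and 0.248 did not pass. With all arrays, 7 of 17 synthesis genes were lower at all 3 times (41.2%), against 13.3% of all genes. These were Hmgcs1, Mvk, Idi1, Cyp51, Tm7sf2, Hsd17b7 and Ebp. The count leans on DMSO replicate 3 of 6 h, 1 of the DMSO arrays that stand apart. At 6 h Cyp51 read 9.56, 9.95 and 10.25 in DMSO arrays, against a celastrol mean of 9.76. Tm7sf2 read 8.92, 9.20 and 9.23 in DMSO arrays, against a celastrol mean of 9.12. Without replicate 3, the last value of each, neither gene was lower with celastrol at 6 h, so both leave the count. The share of all genes was not worked out without the arrays that stand apart.

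The 2 DMSO arrays that stand apart had high synthesis values. DMSO replicate 3 of 6 h had the highest mean over the 17 synthesis genes of all 20 arrays, 10.10, and DMSO replicate 3 of 1 day the next highest, 10.05. Celastrol arrays ranged from 9.89 to 10.01, and the remaining DMSO arrays from 9.95 to 10.01. Without both arrays, 9 of 17 synthesis genes were lower at 6 h, with a median of -0.03. At 1 day 10 of 17 were lower, with a median of -0.02, and the averaged median was -0.02. Over all genes, 54.8%, 42.3% and 46.1% were then lower at 6 h, at 1 day and on average. The 13 of 17 lower on average and the 4 with an unadjusted p under 0.05 were the same numbers without the 2 arrays. Idi1 was no longer among the 4 (limma unadjusted p = 0.0763). Neither array is of 4 days, so the 12 of 17 lower at that time could not change.

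Markers of oligodendrocytes, which make much of the sterol for myelin, were read beside the synthesis genes. Of 9 markers tested 0 passed. At 6 h 9 were higher with celastrol, and at 1 day and 4 days 6 and 8 were lower, with medians of 0.02, -0.05 and -0.09. Their mean level at 4 days ranged from 11.10 to 11.29 in celastrol arrays and from 11.30 to 11.40 in DMSO arrays. Of 10 astrocyte markers 1 passed, Sox9 at 1 day (difference -0.24, limma adjusted p = 0.0478), when 0.425% of all genes tested were called. The astrocyte medians were -0.03, -0.04 and -0.01 at the 3 times. The mean level of the astrocyte list at 1 day was 11.24 to 11.28 in celastrol arrays and 11.29 to 11.36 in DMSO arrays. The part of these cells in the synthesis values was not tested.

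**Figure D3:**
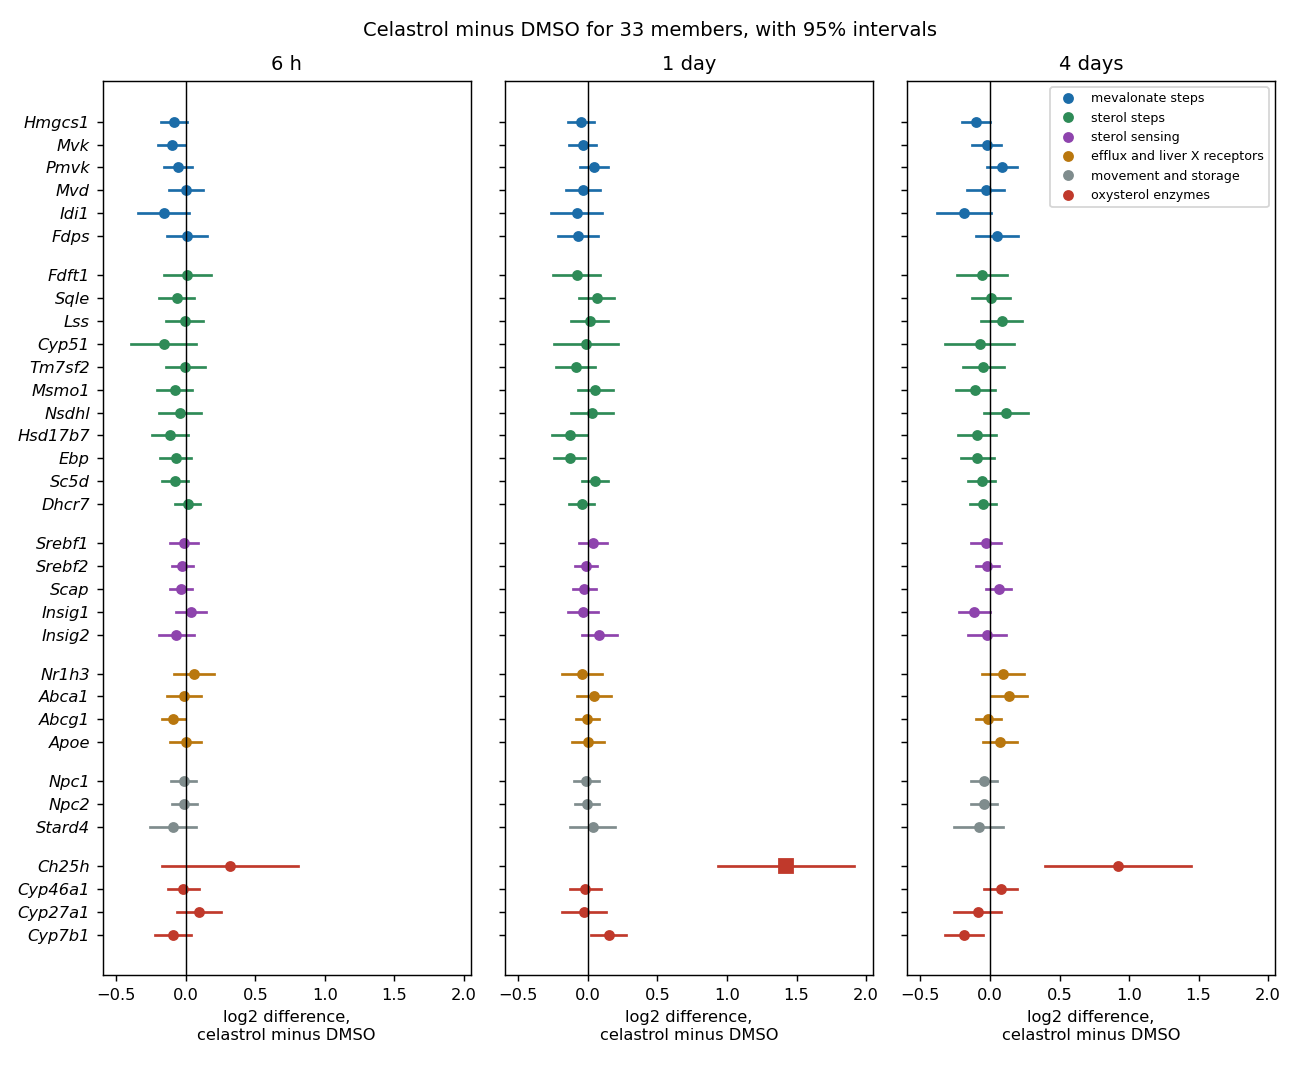
Log2 difference, celastrol minus DMSO (horizontal axes), of the 33 members (vertical axis, by role) at 6 h, 1 day and 4 days, with 95% intervals. The square marks Ch25h at 1 day, the 1 difference that passed, and the differences of the other 32 members lie between -0.19 and 0.15.

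The sensing genes gave medians of -0.03, -0.01 and -0.02 over 5 members at 6 h, 1 day and 4 days, and 0 passed. Insig1, itself a SREBP target, read 10.93, 10.83 and 10.89 in celastrol arrays at 4 days, against 10.998, 10.97 and 11.02 in DMSO arrays. All celastrol arrays were below all DMSO arrays, and the difference of -0.11 did not pass (limma adjusted p = 0.774). Insig1 differed by 0.04 at 6 h and by -0.03 at 1 day, so that its sign was not the same at the 3 times.

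Insig2, the second anchor protein, is the sensing gene with the smallest p at 6 h and 1 day. At 6 h it read 10.52, 10.49, 10.55 and 10.57 in celastrol arrays, against 10.57, 10.54 and 10.69 in DMSO arrays, a difference of -0.07 (limma adjusted p = 0.774). At 1 day it read 10.67, 10.58, 10.83 and 10.52 in celastrol arrays, against 10.65, 10.53 and 10.52 in DMSO arrays, a difference of 0.08 (limma adjusted p = 0.761). The groups overlapped at both times. Srebf2, which encodes SREBP-2, differed by -0.03, -0.01 and -0.02, Srebf1, which encodes the form that drives fatty acid genes, by -0.01, 0.04 and -0.03, and Scap, the escort protein, by -0.04, -0.03 and 0.06.

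None of the efflux genes passed at 1 day, the time at which Ch25h did, nor at 6 h or 4 days. Their medians over 4 members were -0.0092, -0.0026 and 0.08 at the 3 times. Abca1, which loads cholesterol onto apolipoproteins, read 9.96, 10.04, 10.06 and 10.02 in celastrol arrays at 1 day, against 9.89, 10.09 and 9.95 in DMSO arrays. The celastrol arrays fell within the DMSO range, and the difference was 0.04 (95% interval -0.08 to 0.17; limma adjusted p = 0.897). At 4 days Abca1 read 10.06, 10.15 and 10.30 in celastrol arrays, against 9.998, 10.04 and 10.05 in DMSO arrays. Every celastrol array was above the DMSO arrays, and the difference of 0.14 had an unadjusted p of 0.0402 and did not pass in limma (adjusted p = 0.751).

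Abcg1, which exports cholesterol to lipoproteins, was not above DMSO at any time. At 6 h it read 10.59, 10.64, 10.58 and 10.57 in celastrol arrays, against 10.67, 10.69 and 10.69 in DMSO arrays, with all celastrol arrays lower. The difference of -0.09 did not pass (limma adjusted p = 0.658). At 1 day and 4 days it differed by -0.0055 and -0.01. Apoe, the main apolipoprotein of the brain, differed by -0.0020, 0.00037 and 0.07, and Nr1h3, the liver X receptor alpha gene, by 0.06, -0.04 and 0.09.

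Of the 3 genes tested that move cholesterol within cells, 0 passed, with medians of -0.02, -0.0073 and -0.04 at the 3 times. Stard4, a carrier protein of the cytosol, read 8.68, 8.54, 8.78 and 8.43 in celastrol arrays at 6 h, against 8.70, 8.59 and 8.81 in DMSO arrays. At 1 day it read 8.57, 8.44, 8.73 and 8.57 in celastrol arrays, against 8.60, 8.50 and 8.53 in DMSO arrays. The groups overlapped at both times, with differences of -0.09 and 0.03 (limma adjusted p = 0.770 and 0.952). Npc1, the lysosomal membrane protein that releases cholesterol, read 11.41, 11.33 and 11.41 in celastrol arrays at 4 days, against 11.45, 11.46 and 11.38 in DMSO arrays, a difference of -0.04 (limma adjusted p = 0.943) with overlap. Npc2, its soluble partner, differed by -0.01, -0.01 and -0.04.

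**Figure D4:**
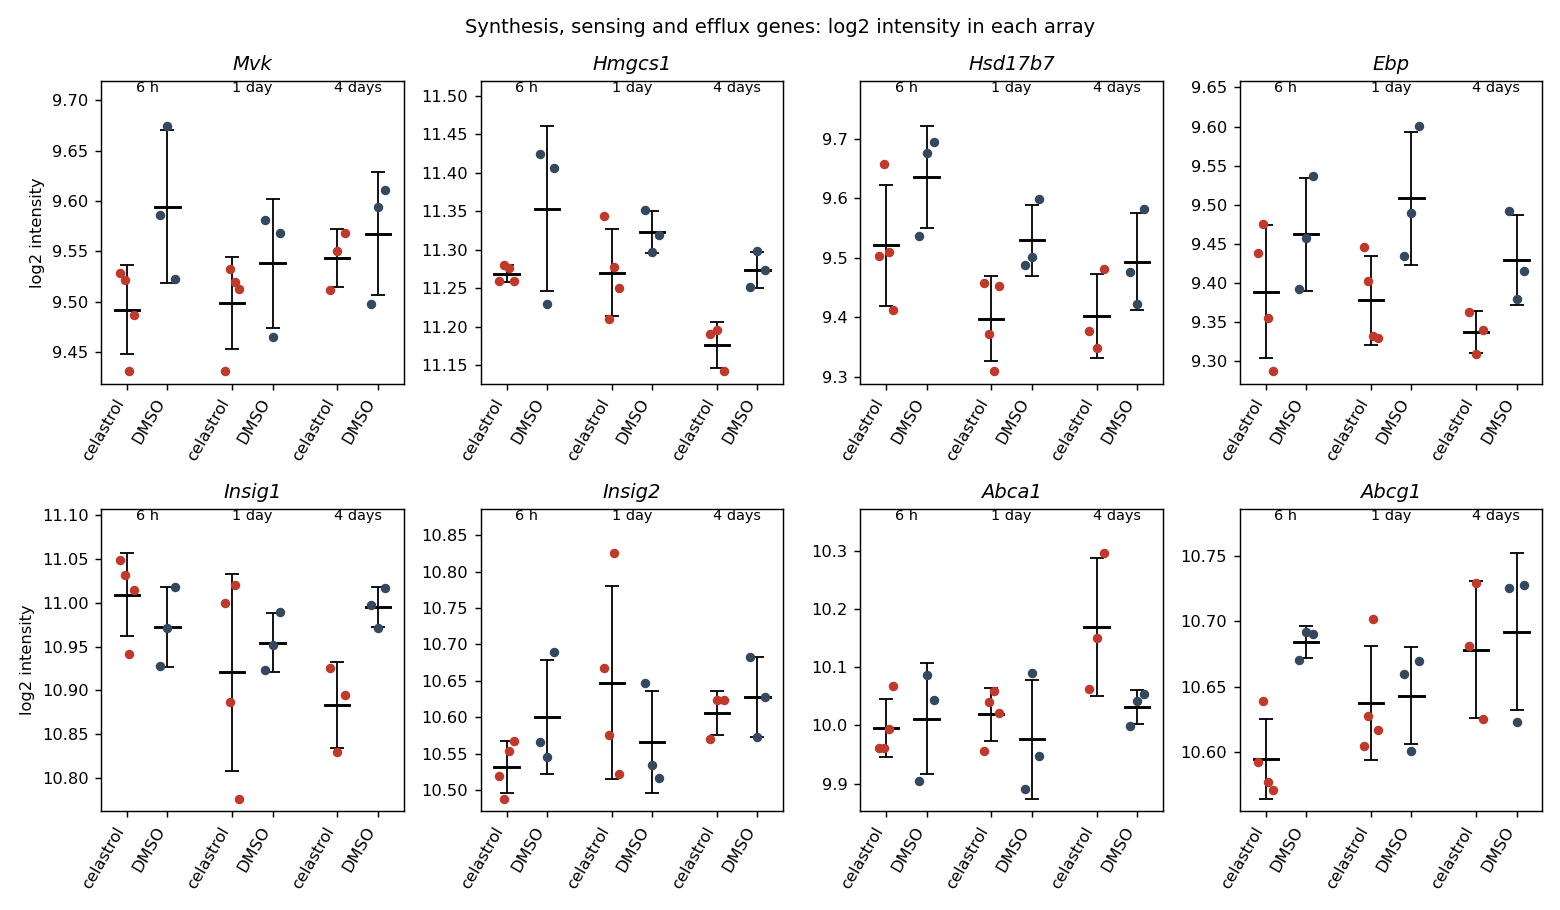
Log2 intensity of synthesis, sensing and efflux genes in each array (vertical axes, scaled per gene) by group (horizontal axes), with celastrol left of DMSO at each time and bars for the mean and SD. The span of each panel is a fraction of a log2 unit. Celastrol and DMSO arrays of the same time overlap in most cases, but most panels also hold a time at which they do not. The genes shown were picked for the smallest unadjusted p in their role group at a time. Over all genes, 6.35%, 7.81% and 14.4% did not overlap at 6 h, 1 day and 4 days.

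The bounds on all members but Ch25h were narrow. Over 32 genes and 3 times, 96 differences ran from -0.19 to 0.15, at most 1.14-fold, and 0 of them exceeded 0.2 in size. The outermost ends of their 95% intervals were -0.39 and 0.28, or 1.31-fold, and none came near the 0.94 at which the interval of Ch25h at 1 day began. Members with no overlap between celastrol and DMSO arrays numbered 2 at 6 h, 3 at 1 day and 6 at 4 days, or 6.06%, 9.09% and 18.2% of the 33. Over all genes those shares were 6.35%, 7.81% and 14.4%. At 6 h they were Sc5d and Abcg1, both lower. At 1 day Hsd17b7 was lower and Ch25h and Cyp7b1 were higher, and at 4 days Hmgcs1, Idi1, Ebp and Insig1 were lower and Abca1 and Ch25h were higher.

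Other genes of the pathway, 57 in all, were counted beside the members, and 43 were tested. Of these 0 passed at any time or on average in limma, and 3, 2, 2 and 4 had an unadjusted p under 0.05 at 6 h, 1 day, 4 days and on average. Their median differences were -0.02, -0.0015 and 0.02 at the 3 times. Rora, a nuclear receptor that binds sterols, had a difference of -0.31 at 6 h (SE 0.066, unadjusted p = 0.000172; limma adjusted p = 0.431), and differences of 0.0036 and 0.02 at 1 day and 4 days. Erlin1, an endoplasmic reticulum protein that restrains SREBP, had differences of 0.03, 0.15 and 0.15 at the 3 times and 0.11 on average (limma adjusted p = 0.129).

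The celastrol difference itself changed with an unadjusted p under 0.05 in 2, 1 and 0 members for 1 day minus 6 h, 4 days minus 1 day and 4 days minus 6 h, where 10.3%, 2.47% and 7.68% of all genes did. Between times within 1 treatment, 0 members passed in limma, and every comparison shares arrays with those above. Among celastrol arrays, unadjusted p-values under 0.05 were found for 5 members at 1 day against 6 h, for 7 at 4 days against 1 day and for 6 at 4 days against 6 h. That is 15.2%, 21.2% and 18.2% of the 33, and over all genes it was 17.2%, 12.1% and 20.3%. Limma's threshold was passed by 0.134%, 0.0425% and 0.892% of all genes in these comparisons. Among DMSO arrays, 1, 2 and 2 members had an unadjusted p under 0.05 in the comparisons of 1 day with 6 h, 4 days with 1 day and 4 days with 6 h. There 12.5%, 7.37% and 10.6% of all genes did, and 0.0991%, 0% and 0.0283% passed. Msmo1, the sterol methyl oxidase, is given as an example chosen after its values were seen. It read 10.97, 10.84 and 10.95 in celastrol arrays at 4 days, against 11.29, 11.06, 11.19 and 11.04 in celastrol arrays at 1 day. All 4 day arrays were lower, and the difference of -0.23 had an unadjusted p of 0.00172 and did not pass in limma (adjusted p = 0.206).

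The members not given array by array had these mean log2 intensities over the 20 arrays, which are levels of 1 probe set each and are not compared between genes. Pmvk had 8.53, Mvd 8.75, Idi1 9.44 and Fdps 10.57. Among the sterol genes, Fdft1 had 12.22, Sqle 10.25, Lss 9.42, Cyp51 9.84, Tm7sf2 9.10, Nsdhl 10.17, Sc5d 10.63 and Dhcr7 9.88. Srebf1 had 9.90, Srebf2 11.32 and Scap 10.63. Nr1h3 had 7.71, Apoe 13.83, Npc2 10.15 and Cyp27a1 8.86. All were above the dim level of 7.04, and Ch25h was the only tested member with a group mean under it.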

How the data were processed

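Values deposited by the authors are log2 intensities, for 23492 probe sets on 20 arrays. RMA is named in the submitters' processing notes, its version is not given in the sources used here, and the genome build of the platform annotation is not named. Array medians were 8.60 to 8.65. Single-symbol probe sets gave 18704 genes, the brightest probe set standing for a gene. Genes under the 25th percentile of mean intensity over all probe sets, a log2 level of 7.04, were left out, and 14129 were tested. Limma 3.58.1 in R 4.3.3 fitted 1 mean for each of the 6 groups, with 14 residual degrees of freedom, eBayes moderation, two-sided tests, Benjamini-Hochberg adjustment over all 14129 genes and a threshold of 0.05. The procedure was checked on simulated data with independent noise and 1 spread per gene. That check does not cover noise shared between genes or a spread that differs between groups. Differences are log2, celastrol minus DMSO or later minus earlier.

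The members and the lists were chosen with earlier results of these data known. Array values are given for Ch25h, for every member past the threshold, and in each role group for the member with the smallest unadjusted p of celastrol against DMSO at each time. Any other gene described with its values was chosen after they were seen. Alternatives covered scaling, the dim filter, probe set averaging, the replicate number, the arrays fitted, array weights, an intensity trend and each array left out. The number of arrays limits the precision. Promoters came from RefSeq (GRCm38.p6), and 28 of the listed genes had one. Protein sequences were not used here, so no protein motif was searched.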

Additional observations from a re-analysis of the deposited data

Results flagged for a closer look

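Within 66 combinations of a member and a group with 4 arrays, 3 held an array far from the other 3, and chance alone flags about 1 in 20 such groups. Pmvk, the phosphomevalonate kinase, read 8.59 in celastrol replicate 1 at 6 h, with the other 3 arrays at 8.49 to 8.50. Mvd, which makes isopentenyl diphosphate, read 8.81 in celastrol replicate 3 at 1 day, with the others at 8.66 to 8.68. Lss, the lanosterol synthase, read 9.56 in celastrol replicate 1 at 1 day, with the others at 9.34 to 9.37. None of the 3 genes passed in any comparison.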

How the results depend on the processing

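Ch25h stayed higher with celastrol at all 3 times and on average under every alternative run. Its 6 h difference ranged from 0.092 to 0.64 and its 1 day difference from 1.24 to 1.58 when single arrays were left out, and at 1 day it lost the threshold only without DMSO replicate 2 of that time, so the members past the threshold ranged from 0 to 1. On average 1 to 2 members passed, the second being Hmgcs1 without DMSO replicate 2 of 6 h (limma adjusted p = 0.0427). Over all genes, leaving out arrays gave 0 to 6 calls at 6 h, 18 to 85 at 1 day, 0 to 20 at 4 days and 39 to 156 on average, against 0, 60, 9 and 81 with all arrays. Array weights gave 196 calls at 1 day and 20 at 4 days. At 4 days quantile normalization of the arrays again gave 5, no filter on dim probe sets 2, and only the groups compared 2, one of which was Ch25h (0.92), so that 1 member passed. Without the 2 arrays that stand apart, an alternative chosen after seeing the data, the averaged calls numbered 39. Small values turned sign. Abca1 at 1 day was -0.0063 with array weights. With single arrays left out, Stard4 at 1 day ranged from -0.016 to 0.078, Ch25h at 4 days against 6 h in celastrol arrays from -0.011 to 0.25 (-0.044 with the replicate block), and Ch25h at 4 days against 1 day in DMSO arrays from -0.17 to 0.027. The cause was not tested. Apart from Ch25h in celastrol against DMSO, given above, the other 706 values of named genes under alternatives kept their direction and side of the threshold. Many of them could not change direction, because a left-out array of another group does not enter the difference.

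Residuals of celastrol and DMSO arrays of the same time and number correlated between -0.29 and 0.29, so these numbers were not taken as pairs. Arrays with the same number at different times were not compared in this way. With the replicate block, Ch25h at 1 day was 1.54 (limma adjusted p = 0.00429), and 1 member passed at 4 days against 6 h within celastrol arrays, Cyp46a1 (limma adjusted p = 0.0467), against 0 without the block.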
